A study of Mus musculus with 24 samples.

Results

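The comparison described here asked whether the effect of losing Ogg1 on nuclear RNA differed between neurons and glia of the mouse hippocampus. It was a difference of differences: the log2 fold change of Ogg1-/- against wild type (WT) in NeuN+ nuclei minus the same fold change in NeuN- nuclei, called the interaction below. Both count tables, one for each cell type, were joined by gene symbol. The comparison rested on 12 of the 24 libraries of the series, with 3 replicates in each of 4 groups: WT NeuN+, Ogg1-/- NeuN+, WT NeuN- and Ogg1-/- NeuN-. The other 12 libraries, from Mutyh-/- and Ogg1-/- x Mutyh-/- double knockout (DKO) mice, entered the fit as groups of their own, and they gave a second measurement of the loss of Ogg1, between DKO and Mutyh-/- mice, that used none of the first 12 libraries.

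All mice were 6 months old males on a C57BL/6N background. Both genes were deleted in the whole animal rather than in a single cell type, so the neurons and the glia of a knockout mouse lacked the same gene. Hippocampal nuclei were pooled from animals of 1 genotype, stained for NeuN and sorted, and the methods leave unclear whether a replicate was a separate pool, so the p-values measure the spread between these libraries, which may be technical. Each fold change compared genotypes within 1 cell type. By the labels, NeuN+ and NeuN- libraries were on different lanes, so a difference between the cell types of 1 genotype and one between lanes cannot be told apart, whereas both genotypes of a cell type share their lanes.

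OGG1 is the DNA glycosylase that cuts oxidised guanine (8-oxoguanine) out of DNA as the first step of base excision repair, and MUTYH removes an adenine that was paired with such a base. NeuN is the protein of Rbfox3, an RNA-binding splicing regulator of neuronal nuclei, so staining for it parts neurons from the astrocytes, oligodendrocytes, microglia and other cells that make up the NeuN- fraction. Nuclear RNA is rich in unspliced and noncoding transcripts, and a count per gene in it follows transcription more closely than a count in whole-cell RNA does.

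The 12 libraries held between 56982273 and 96192142 counts each (median 66683881). Levels below are counts per 1000000 counts of the scaled library (CPM). Rbfox3 lay between 1430 and 1690 CPM in the 6 NeuN+ libraries and between 63.1 and 97.6 CPM in the 6 NeuN- libraries. The summed level of 9 oligodendrocyte markers was 156 to 181 CPM in NeuN+ and 5830 to 7760 CPM in NeuN-, so both sorted fractions carried the markers of their labels, with traces of the other. The deleted gene did not check the genotype labels. Ogg1 was at 2.77, 3.77 and 3.34 CPM in the WT NeuN+ libraries and at 3.66, 3.50 and 3.21 CPM in those labelled Ogg1-/-. In NeuN- it was at 6.43, 6.29 and 5.70 CPM in WT and at 6.30, 6.56 and 5.89 CPM in Ogg1-/-. The ranges overlapped in both cell types, and the interaction of Ogg1 was 0.04 (95% confidence interval -0.26 to 0.34, adjusted p = 0.985). A count per gene cannot tell transcripts of an intact gene from those of an allele that lacks a part of it, and the genotype names used here are those of the labels. Mutyh was higher, and not lower, in the libraries labelled Mutyh-/- and DKO, so its level did not show a deletion either. It was at 1.15 to 1.28 CPM in WT NeuN+ and 2.39 to 2.82 CPM in WT NeuN-. In the libraries labelled Mutyh-/- and DKO it was at 8.47 to 12.2 CPM in NeuN+ and 6.65 to 9.71 CPM in NeuN-. These ranges were apart from those of WT, and the limit of a count per gene applies here as well. The paper states that sequenced mice were genotyped again after death.

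Of 33523 genes tested, 18 had an interaction with an adjusted p under 0.05 by edgeR's quasi-likelihood test, which is 0.0537% of the genes. In 11 of them (0.0328% of the genes tested) the effect of Ogg1 loss was the more positive in NeuN+, and in 7 (0.0209%) it was the more negative. At an unadjusted p under 0.05 the test passed 2377 genes. The smallest called interaction was 0.475 on the log2 scale, and the median standard error over all genes was 0.231, so differences between the cell types of that size or less were often not detectable. The effect of Ogg1 loss itself counted as called when its adjusted p was under 0.05 and its log2 fold change exceeded 0.5 in size, and this held for 191 genes in NeuN+ (0.570%) and for 145 genes in NeuN- (0.433%). The NeuN+ count dropped to 104 or 106 without WT NeuN+ replicate 2 or 3 and to 98 or 77 without Ogg1-/- NeuN+ replicate 2 or 3. In bulk nuclei, fewer cells of a type and less RNA per cell cannot be told apart, and this holds for every level below.

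The 18 genes came in 4 kinds. In 5 of them, the long noncoding RNAs Arhgap33os and Gm15870 and the coding genes Tspan11, Gm3952 and Rimklb, the effect of Ogg1 loss was called in NeuN+ and not in NeuN-. In 7, namely Wnt5b, Grm7, Gm44596, Gm20387, Gm15862, Gm27882 and Slc5a11, it was called in NeuN- and not in NeuN+, and all 7 of these effects were negative (NeuN- effects below 0 were called for 0.200% of the genes tested). Mid1, G530011O06Rik and Epsti1 had a called effect in both cell types. Enox1, Ccdc190 and Als2cl had a called effect in neither, although the NeuN- effects of Enox1 and Als2cl passed by adjusted p and fell short of the size limit of 0.5. The fold changes had opposite signs in the 2 cell types for 7 of the 18 genes, and 13 of the 18 were higher in NeuN- than in NeuN+ nuclei of WT mice. The 18 were chosen by the difference of the fold changes, so the count of opposite signs is not independent of that choice. Shares over all genes tested are not given here for these 2 counts. By annotation, 12 of the 18 genes were protein coding and 6 noncoding. Pairs of them lay on top of each other at 4 loci (Mid1 and G530011O06Rik, Tspan11 and Gm15870, Grm7 and Gm20387, Gm44596 and Gm15862), each pair on opposite strands. The libraries were made with a stranded kit, but whether the counting used strand is not given in the sources used here. Reads from the bases that a pair shares thus cannot be assigned to 1 of its genes. Grm7 and Gm20387 share 336 bases, while G530011O06Rik, Gm15870 and Gm15862 lie wholly within their partners. By position, the 18 genes stand for at most 14 loci.

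**Figure D1:**
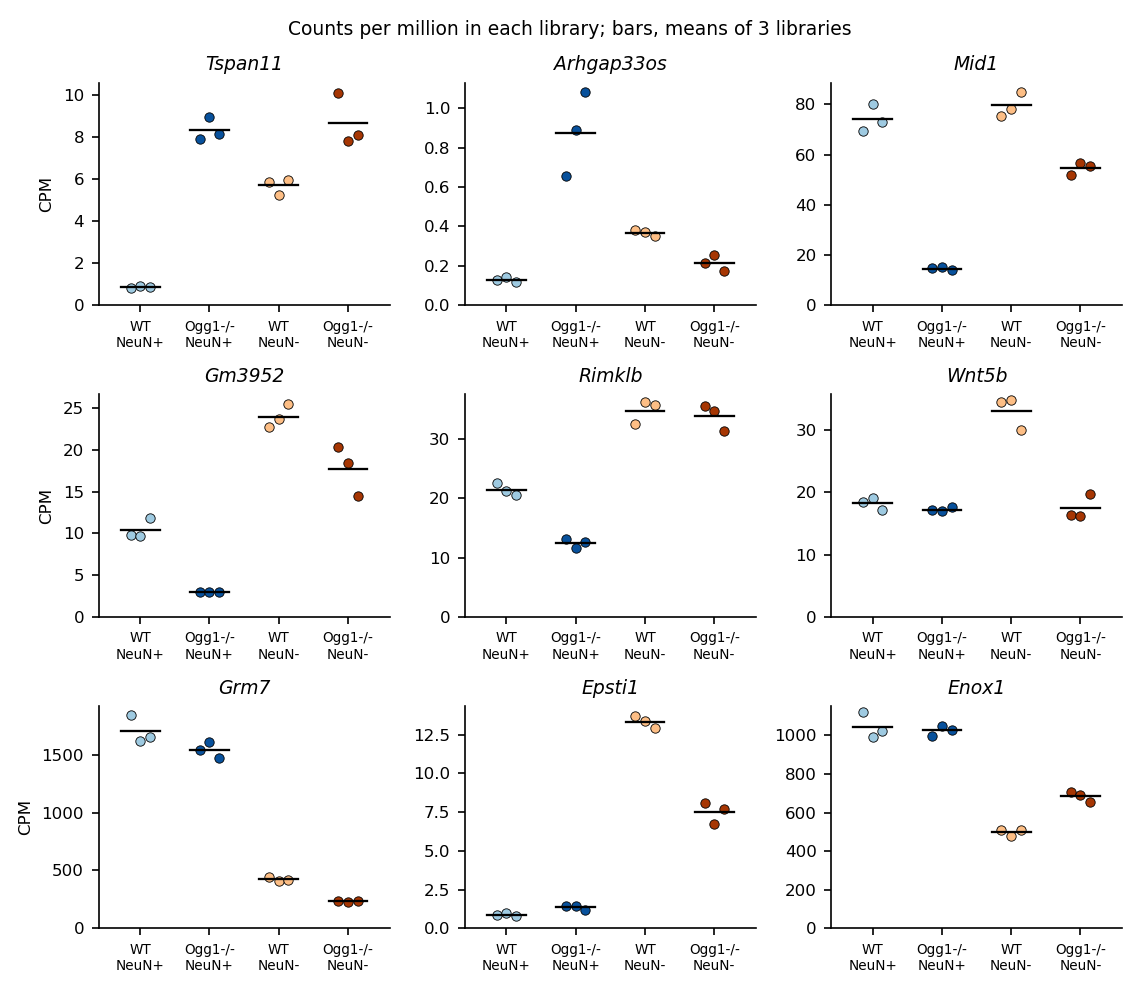
Levels of 9 of the 18 genes in each of the 12 libraries. Each panel plots CPM from 0 upwards on a linear axis for 3 libraries in each of WT NeuN+, Ogg1-/- NeuN+, WT NeuN- and Ogg1-/- NeuN-; bars are group means. Tspan11 rose from below 1 CPM to about the NeuN- level in Ogg1-/- NeuN+ nuclei, whereas Wnt5b and Grm7 changed in NeuN- nuclei and stayed near the WT level in NeuN+.

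Tspan11 (chromosome 6, 127887589 to 127953977, plus strand, GRCm38), which encodes a membrane protein of the tetraspanin family, lost nearly all of its difference between the cell types. Its level was 0.843, 0.923 and 0.892 CPM in WT NeuN+ libraries and 7.91, 8.96 and 8.14 CPM in Ogg1-/- NeuN+ libraries. The NeuN- level was 5.85, 5.26 and 5.97 CPM in WT and 10.1, 7.80 and 8.07 CPM in Ogg1-/-. All 3 Ogg1-/- libraries were above all 3 WT libraries in both cell types, but the step was far larger in NeuN+. The log2 fold change was 3.23 in NeuN+ (adjusted p = 8.23e-08) and 0.60 in NeuN- (adjusted p = 0.231), with an interaction of 2.63 (SE 0.35, adjusted p = 0.00114). The log2 difference between NeuN+ and NeuN- nuclei thus went from -2.68 in WT to -0.05 in Ogg1-/- mice. Gm15870, an antisense RNA that lies wholly within Tspan11 (127934689 to 127944839, minus strand), moved with it: counts of 7, 3 and 5 in WT NeuN+ stood against 80, 105 and 81 in Ogg1-/- NeuN+, and its interaction was 3.32 (SE 0.38, adjusted p = 0.000144).

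The 250 bases before the start site of Tspan11 are shown because its NeuN+ level moved the most among the coding genes called. They were taken from RefSeq (GRCm38.p6, chr6:127887372-127887621, plus strand), with CpG dinucleotides (CG) in capitals, as are the other promoters below.
Tspan11: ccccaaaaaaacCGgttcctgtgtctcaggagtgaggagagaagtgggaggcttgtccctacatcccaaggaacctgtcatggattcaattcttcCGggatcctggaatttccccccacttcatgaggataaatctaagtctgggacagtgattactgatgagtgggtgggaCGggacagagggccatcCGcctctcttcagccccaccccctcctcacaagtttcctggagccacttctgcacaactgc
It held 4 CpG dinucleotides, and 62.2% of the 32851 RefSeq promoters of the same length held as many or more (median 6). These are letters in a window and no measure of methylation.

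Arhgap33os (chromosome 7, 30515122 to 30522193, plus strand), an antisense RNA with no annotated overlap, changed sides between the cell types. It had counts of 8, 9 and 7 in WT NeuN+ libraries and of 40, 77 and 88 in Ogg1-/- NeuN+ libraries. In NeuN- the counts were 38, 27 and 31 in WT and 16, 18 and 11 in Ogg1-/-. The groups did not overlap in either cell type, and the fold changes had opposite signs. In CPM, the ranges were 0.116 to 0.146 in WT NeuN+, 0.656 to 1.08 in Ogg1-/- NeuN+, 0.354 to 0.381 in WT NeuN- and 0.173 to 0.254 in Ogg1-/- NeuN-. The interaction was 3.51 (SE 0.33, adjusted p = 1.4e-05), made of a log2 fold change of 2.74 in NeuN+ (adjusted p = 1.61e-07) and of -0.78 in NeuN- (adjusted p = 0.12). The RNA was 1.49 log2 units lower in NeuN+ than in NeuN- of WT mice and 2.02 log2 units higher in NeuN+ than in NeuN- of Ogg1-/- mice.

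Neighbours of Arhgap33os were looked at after its values were seen. Kirrel2, which encodes an immunoglobulin-type adhesion protein, lies close by. It rose in both cell types of Ogg1-/- mice, by 1.26 in NeuN+ (adjusted p = 0.00268) and by 0.84 in NeuN- (adjusted p = 0.015), and its interaction of 0.42 did not pass (adjusted p = 0.814). Nphs1, which encodes nephrin and lies next to Kirrel2, had a log2 fold change of -0.27 in NeuN+ (adjusted p = 0.716) and of 0.89 in NeuN- (adjusted p = 0.00831). Its interaction of -1.16 had an unadjusted p of 0.00033 and an adjusted p of 0.205. Of the 279 genes tested within 5 Mb of Arhgap33os, 7 had a called effect of Ogg1 loss in at least 1 cell type, which is 2.51% against 0.823% of all genes tested.

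Gm3952 and Rimklb fell in NeuN+ nuclei. Gm3952 (chromosome 8, 128745963 to 128798694, minus strand) was at 9.83, 9.67 and 11.8 CPM in WT NeuN+ and at 3.03, 2.94 and 2.97 CPM in Ogg1-/- NeuN+. The level in NeuN- was 22.7, 23.7 and 25.5 CPM in WT and at 20.3, 18.4 and 14.5 CPM in Ogg1-/-. The 2 genotypes did not overlap in either cell type. The fold change was -1.81 in NeuN+ (adjusted p = 2.01e-08) and -0.43 in NeuN- (adjusted p = 0.098), and the interaction was -1.37 (SE 0.18, adjusted p = 0.00114). Gm3952 lies within Ccdc7a on the same strand, so reads could be split between them. Ccdc7a, chosen after its values were seen, had fold changes of -0.76 in NeuN+ (adjusted p = 1.74e-05) and -0.30 in NeuN- (adjusted p = 0.098), with an interaction of -0.46 that did not pass (adjusted p = 0.377).

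Rimklb (chromosome 6, 122447296 to 122498761, minus strand) encodes an enzyme that joins glutamate to other acids, among them N-acetylaspartate. It was at 22.6, 21.3 and 20.5 CPM in WT NeuN+ and at 13.2, 11.6 and 12.6 CPM in Ogg1-/- NeuN+. In NeuN- nuclei it was at 32.5, 36.3 and 35.7 CPM in WT and at 35.6, 34.8 and 31.4 CPM in Ogg1-/-. The genotypes were apart in NeuN+ and overlapped in NeuN-. Its fold change was -0.79 in NeuN+ (adjusted p = 5.84e-06) and -0.03 in NeuN- (adjusted p = 0.923), and the interaction was -0.75 (SE 0.12, adjusted p = 0.00689).

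Grm7 and Wnt5b led the genes that fell in NeuN- nuclei. Grm7 (chromosome 6, 110645581 to 111567230, plus strand) encodes a presynaptic metabotropic glutamate receptor. Its level was 445, 411 and 416 CPM in WT NeuN- and 232, 229 and 238 CPM in Ogg1-/- NeuN-. In NeuN+ it was 1840, 1620 and 1650 CPM in WT and 1540, 1610 and 1470 CPM in Ogg1-/-. In NeuN- the genotypes were far apart, and in NeuN+ the Ogg1-/- libraries lay just under the WT libraries without overlap. The fold change was -0.86 in NeuN- (adjusted p = 1.4e-07) and -0.15 in NeuN+ (adjusted p = 0.47), with an interaction of 0.72 (SE 0.10, adjusted p = 0.00252). The antisense RNA Gm20387 (110639753 to 110645916, minus strand), which overlaps the start of Grm7 by 336 bases, was at 3.38, 2.85 and 2.48 CPM in WT NeuN- and at 1.63, 1.44 and 1.57 CPM in Ogg1-/- NeuN-. It had a fold change of -0.91 in NeuN- (adjusted p = 3.42e-05) and of -0.04 in NeuN+ (adjusted p = 0.94), and an interaction of 0.87 (SE 0.15, adjusted p = 0.0161). The call on Gm20387 was lost without Ogg1-/- NeuN+ replicate 3, WT NeuN- replicate 1 or Ogg1-/- NeuN- replicate 2 (highest adjusted p = 0.0934). The summed level of 10 neuronal markers in NeuN- was 786 to 879 CPM in WT and 726 to 802 CPM in Ogg1-/-, with overlap, and its part in the fall of Grm7 was not tested.

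The start windows of Grm7 and Gm20387 are shown because the pair moved together and the windows share 197 of their 250 bases on opposite strands. The RefSeq start of Gm20387 lies 516 bases inside the gene as GENCODE gives it, and that of Grm7 17 bases, so the window of Gm20387 is within the GENCODE gene and not before it. Their RefSeq positions (GRCm38.p6) are chr6:110645348-110645597 on the plus strand and chr6:110645401-110645650 on the minus strand.
Grm7: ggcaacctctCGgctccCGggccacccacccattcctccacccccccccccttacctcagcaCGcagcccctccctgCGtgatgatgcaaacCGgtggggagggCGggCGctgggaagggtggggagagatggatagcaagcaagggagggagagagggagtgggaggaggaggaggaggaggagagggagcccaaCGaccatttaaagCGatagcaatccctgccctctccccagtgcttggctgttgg
Gm20387: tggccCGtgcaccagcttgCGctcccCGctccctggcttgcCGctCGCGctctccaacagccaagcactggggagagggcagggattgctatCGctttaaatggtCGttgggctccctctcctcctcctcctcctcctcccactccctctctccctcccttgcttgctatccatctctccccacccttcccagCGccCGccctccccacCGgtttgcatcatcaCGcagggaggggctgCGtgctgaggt
They held 9 and 13 CpG dinucleotides, and 40.3% and 31.5% of RefSeq promoters held as many or more.

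Wnt5b (chromosome 6, 119432531 to 119544347, minus strand) encodes a secreted ligand of the Wnt pathway. It was at 34.5, 34.8 and 30.1 CPM in WT NeuN- and at 16.3, 16.2 and 19.8 CPM in Ogg1-/- NeuN-. In NeuN+ it was at 18.4, 19.1 and 17.2 CPM in WT and at 17.1, 17.0 and 17.6 CPM in Ogg1-/-. The Ogg1-/- NeuN- level had come down to that of neurons, and in NeuN+ the genotypes overlapped. Its fold change was -0.93 in NeuN- (adjusted p = 4.22e-07) and -0.08 in NeuN+ (adjusted p = 0.819), and the interaction was 0.85 (SE 0.12, adjusted p = 0.00252). The log2 difference between the cell types went from -0.86 in WT to -0.02 in Ogg1-/-. Its RefSeq start window (GRCm38.p6, chr6:119544348-119544597, minus strand) is shown as the CpG-rich contrast to that of Tspan11.
Wnt5b: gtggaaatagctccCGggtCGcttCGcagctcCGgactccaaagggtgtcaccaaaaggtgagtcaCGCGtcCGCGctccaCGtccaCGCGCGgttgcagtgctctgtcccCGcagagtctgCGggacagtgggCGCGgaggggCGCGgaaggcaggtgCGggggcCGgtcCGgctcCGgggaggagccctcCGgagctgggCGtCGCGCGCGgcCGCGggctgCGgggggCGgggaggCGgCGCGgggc
It held 35 CpG dinucleotides, and 2.97% of RefSeq promoters held as many or more.

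Gm44596 and Gm15862 overlap over 18157 bases of chromosome 6 and fell together in NeuN-. Gm44596 (128375503 to 128407475, plus strand) was at 41.6, 36.6 and 32.6 CPM in WT NeuN- and at 16.0, 17.0 and 18.6 CPM in Ogg1-/- NeuN-. In NeuN+ it was at 14.1, 13.2 and 15.5 CPM in WT and at 12.6, 13.8 and 12.5 CPM in Ogg1-/-, with overlap. Its fold change was -1.10 in NeuN- (adjusted p = 3.4e-07) and -0.14 in NeuN+ (adjusted p = 0.693), with an interaction of 0.97 (SE 0.14, adjusted p = 0.00366). The antisense Gm15862 (128381584 to 128399740, minus strand) had a fold change of -1.50 in NeuN- (adjusted p = 3.4e-07) and of -0.34 in NeuN+ (adjusted p = 0.458), with an interaction of 1.16 (SE 0.21, adjusted p = 0.041), a call that was kept in only 2 of 12 fits with 1 library left out, those without WT or Ogg1-/- NeuN- replicate 3 (highest adjusted p = 0.266). Gm44596 shares bases with Tex52, Nrip2 and Foxm1 on its own strand. Tex52, chosen after its values were seen, fell in both cell types, by 0.87 in NeuN+ (adjusted p = 0.0423) and by 1.52 in NeuN- (adjusted p = 6.6e-07), and its interaction of 0.65 did not pass (adjusted p = 0.615).

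Slc5a11 (chromosome 7, 123214780 to 123273253, plus strand), a sodium-coupled inositol transporter, and Gm27882, a short RNA annotated within the nuclear long noncoding RNA Miat on chromosome 5 (112216740 to 112216813), completed the genes called in NeuN-. Slc5a11 was at 17.1, 13.2 and 13.8 CPM in WT NeuN- and at 9.01, 8.85 and 8.21 CPM in Ogg1-/- NeuN-. In NeuN+ it had few counts, with 0.438 to 0.595 CPM in WT and 0.556 to 0.968 CPM in Ogg1-/-. The genotypes were apart in NeuN- and overlapped in NeuN+. Its interaction was 1.38 (SE 0.25, adjusted p = 0.041), and the call was kept in 3 of 12 fits with 1 library left out, those without Ogg1-/- NeuN+ replicate 2 and WT NeuN- replicates 2 and 3 (highest adjusted p = 0.25). The summed level of 9 oligodendrocyte markers was lower in NeuN- nuclei of Ogg1-/- mice (5830 to 6580 CPM against 6980 to 7760 CPM in WT), and its part in the fall of Slc5a11 was not tested. Gm27882 was at 1.19 to 1.34 CPM in WT NeuN- and at 0.728 to 0.958 CPM in Ogg1-/- NeuN-, with an interaction of 0.73 (SE 0.13, adjusted p = 0.0292) that was still called in 2 of the 12 fits, without Ogg1-/- NeuN+ replicate 1 and Ogg1-/- NeuN- replicate 3 (highest adjusted p = 0.167).

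Mid1, an E3 ubiquitin ligase bound to microtubules, fell in both cell types but by far more in neurons. The gene (chromosome X, 169685199 to 170005736, plus strand) was at 69.5, 80.1 and 73.2 CPM in WT NeuN+ and at 14.7, 15.3 and 13.9 CPM in Ogg1-/- NeuN+. The NeuN- level was 75.6, 78.2 and 85.0 CPM in WT and at 51.9, 56.7 and 55.4 CPM in Ogg1-/-. The WT levels of the cell types were about equal, and no WT library overlapped an Ogg1-/- library of its cell type. The fold change was -2.34 in NeuN+ (adjusted p = 9.07e-11) and -0.54 in NeuN- (adjusted p = 0.0306), with an interaction of -1.80 (SE 0.17, adjusted p = 1.44e-05). G530011O06Rik, an RNA within Mid1 on the other strand (169975043 to 169978917), fell by 3.10 in NeuN+ and by 1.76 in NeuN-, with an interaction of -1.34 (SE 0.24, adjusted p = 0.0287). With 1 library left out, its call was kept in 2 of 12 fits, those without WT NeuN+ replicate 1 and Ogg1-/- NeuN+ replicate 2 (highest adjusted p = 0.161). Of 14 tested genes listed for the Mid1 locus, these 2 had a called interaction.

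The start window of Mid1 (RefSeq, GRCm38.p6, chrX:169684949-169685198, plus strand) is shown because it is the only one of the 5 printed that held no CpG dinucleotide.
Mid1: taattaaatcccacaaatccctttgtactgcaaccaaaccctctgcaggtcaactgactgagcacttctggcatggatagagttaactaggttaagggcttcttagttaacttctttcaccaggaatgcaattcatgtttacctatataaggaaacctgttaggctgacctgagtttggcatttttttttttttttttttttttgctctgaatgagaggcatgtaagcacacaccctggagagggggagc

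Epsti1, a gene that responds to interferon, moved in opposite directions, and it was the only gene of the 33523 tested with a called effect of each sign. It lies on chromosome 14 (77904239 to 78002657, plus strand). Its level was 0.860, 0.988 and 0.776 CPM in WT NeuN+ and 1.43, 1.46 and 1.19 CPM in Ogg1-/- NeuN+, from 47 to 126 counts. In NeuN- it was 13.7, 13.4 and 12.9 CPM in WT and 8.07, 6.73 and 7.71 CPM in Ogg1-/-. The genotypes did not overlap in either cell type. The fold change was 0.63 in NeuN+ (adjusted p = 0.021) and -0.83 in NeuN- (adjusted p = 2.07e-05), and the interaction was 1.46 (SE 0.17, adjusted p = 0.000144). None of the other 24 interferon-response genes tested had a called interaction. Isg15 (1.03, adjusted p = 0.58) and Rsad2 (-1.69, adjusted p = 0.529) had the next smallest p-values, on at most 73 counts in each of the 12 libraries.

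Enox1, which encodes an oxidase of the cell surface, lies just before Epsti1 on the same strand (77156763 to 77721760). It was at 509, 477 and 510 CPM in WT NeuN- and at 704, 691 and 657 CPM in Ogg1-/- NeuN-. In NeuN+ it was at 1120, 990 and 1020 CPM in WT and at 997, 1050 and 1030 CPM in Ogg1-/-. The genotypes were apart in NeuN- and overlapped in NeuN+. Its fold change was 0.46 in NeuN- (adjusted p = 1.49e-05, under the size limit of 0.5) and -0.02 in NeuN+ (adjusted p = 0.95), and the interaction was -0.48 (SE 0.07, adjusted p = 0.00645). Als2cl, a relative of the guanine nucleotide exchange factor alsin, had fold changes of 0.38 in NeuN- (adjusted p = 0.0135) and -0.42 in NeuN+ (adjusted p = 0.162), with an interaction of -0.81 (SE 0.15, adjusted p = 0.0457). Ccdc190 had fold changes of 0.27 in NeuN- (adjusted p = 0.177) and -0.82 in NeuN+ (adjusted p = 0.0591), the latter on 16 to 28 counts a library, and an interaction of -1.09 (SE 0.20, adjusted p = 0.041). Each of these 2 calls was kept in 2 of 12 fits with 1 library left out, without WT or Ogg1-/- NeuN+ replicate 1 for Als2cl (highest adjusted p = 0.281) and without replicate 1 of Ogg1-/- NeuN+ or NeuN- for Ccdc190 (highest adjusted p = 0.453).

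**Figure D2:**
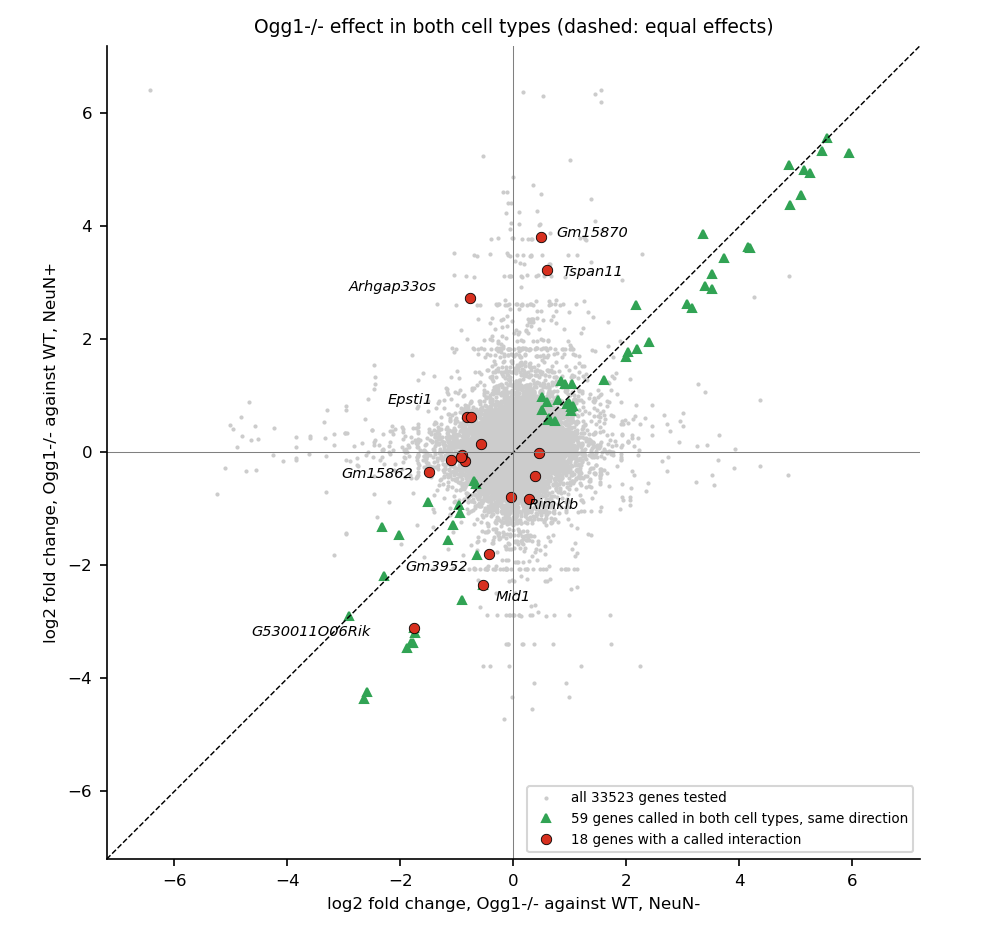
Log2 fold change of Ogg1-/- against WT in NeuN- (horizontal axis) and NeuN+ (vertical axis) for the 33523 genes tested. The 18 genes with a called interaction (circles) lie off the dashed line of equal effects. The 59 genes called in both cell types in 1 direction (triangles) lie on both sides of it. Some of the 59 are far from the line, such as Gm15247 (-4.24 in NeuN+ and -2.59 in NeuN-). Of the 59, 2 are also among the 18, Mid1 and G530011O06Rik.

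Most effects called in both cell types had the same direction. Of 60 genes with a called effect in NeuN+ and in NeuN-, 59 moved in the same direction, 38 upwards and 21 downwards, and 2 of the 59 had a called interaction. The shared effects with the smallest p-values came from a cluster of near-identical gene copies around Ccl21 on chromosome 4, where reads can be split between copies. Of the 30 genes listed for this cluster and tested, 20 had a called rise in NeuN+ and 20 in NeuN-. The 38 upward genes are thus not 38 separate loci. Gm13303 of that cluster was at 10.9, 11.6 and 9.61 CPM in WT NeuN+ and at 76.9, 77.8 and 82.9 CPM in Ogg1-/- NeuN+. In NeuN- it went from 2.26, 2.29 and 2.93 CPM in WT to 30.1, 29.2 and 26.8 CPM in Ogg1-/-. Both steps were without overlap, the fold changes were 2.89 and 3.52, and the interaction of -0.64 did not pass (adjusted p = 0.50). None of the 30 tested genes of the cluster had a called interaction, although 23 of them lay below 0, with a median of -0.24. Across all genes tested, the correlation of the NeuN+ and the NeuN- fold change was 0.164, over genes that are not independent and that mostly did not change.

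**Figure D3:**
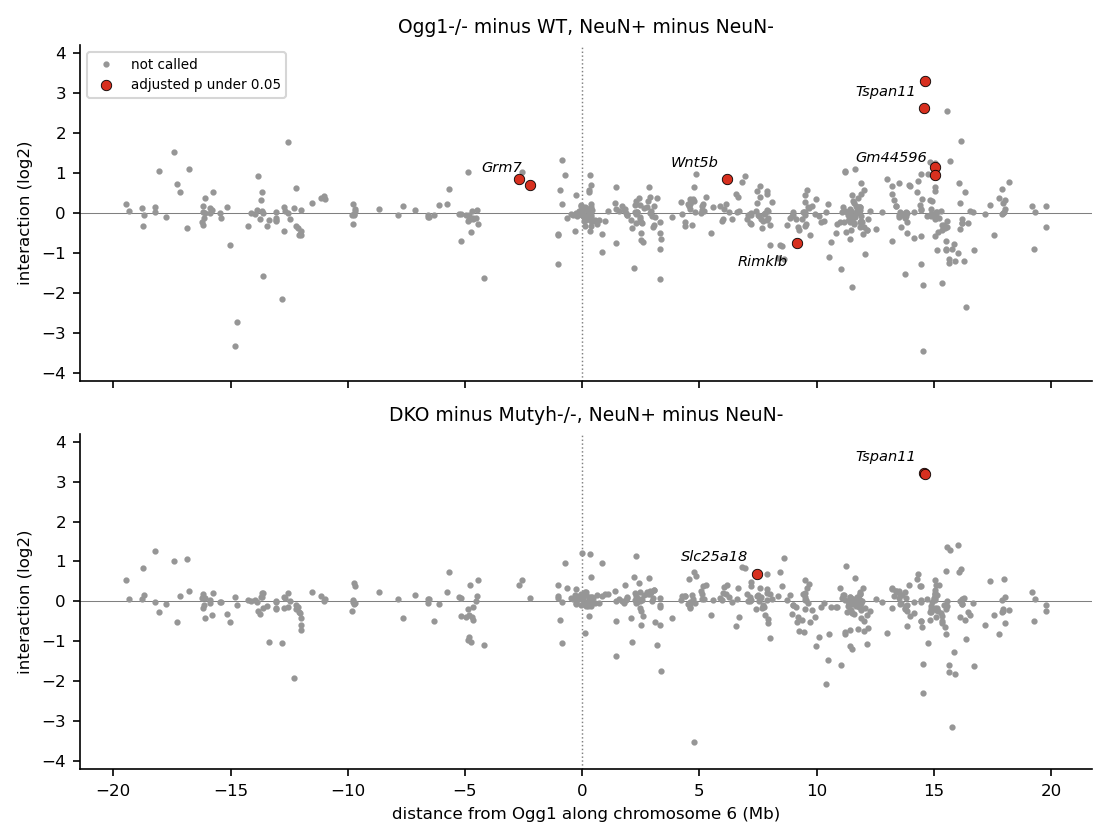
Interaction (log2, vertical axis) of the 502 genes tested within 20 Mb of Ogg1, by their distance from it along chromosome 6 in Mb. The upper panel compares Ogg1-/- with WT, and 8 genes were called (red); the lower panel compares DKO with Mutyh-/-, and 3 were called, with Tspan11 and Gm15870 at one place.

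By position, 8 of the 18 genes lay within 20 Mb of Ogg1 on chromosome 6: Gm20387 and Grm7 before it, and Wnt5b, Rimklb, Tspan11, Gm15870, Gm15862 and Gm44596 after it. That is 8 of the 502 genes tested in this window (1.59%), against 10 of 30720 on the other chromosomes (0.0326%) and 0 of 1204 on the rest of chromosome 6, where edgeR's test gave no call. The 8 include the overlapping pairs Grm7 with Gm20387, Tspan11 with Gm15870 and Gm44596 with Gm15862, so they stand for fewer than 8 loci. With the genes of the window set aside and p-values adjusted over the other 33021, an alternative added after the data were seen, 5 genes had a called interaction. The distances ran from 2.69 Mb before Ogg1 to 15.06 Mb after it. Effects of Ogg1 loss in a single cell type were also frequent in the window, with 15 genes called in NeuN+ (2.99%) and 26 in NeuN- (5.18%). Camk1, a calcium/calmodulin-dependent kinase gene whose end overlaps that of Ogg1 on the other strand, was chosen after its values were seen. It was at 11.0, 12.5 and 11.1 CPM in WT NeuN+ and at 8.74, 7.86 and 8.69 CPM in Ogg1-/- NeuN+, and at 28.9, 27.6 and 25.8 CPM in WT NeuN- and 18.0, 18.6 and 18.7 CPM in Ogg1-/- NeuN-. The genotypes did not overlap in either cell type, and the fold changes were -0.45 and -0.57, with an interaction of 0.12 (SE 0.11, adjusted p = 0.891). Zfp248, a zinc finger gene of the same window that was likewise chosen after its values were seen, fell by 0.52 in NeuN+ (adjusted p = 5.63e-06) and by 0.71 in NeuN- (adjusted p = 4.17e-08), with an interaction of 0.19 (adjusted p = 0.633).

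A second cluster was seen on chromosome 14 around Enox1 and Epsti1, a stretch that was looked at because both genes had a called interaction. Within 5 Mb of Epsti1, 10 of the 101 other genes tested (9.9%) had a called effect of Ogg1 loss in at least 1 cell type, against 0.823% of all genes tested. Esd, which encodes an esterase, fell by 1.07 in NeuN+ and by 0.95 in NeuN-, and its interaction of -0.12 did not pass (adjusted p = 0.933). Lacc1 fell by 1.55 and 1.17, and the noncoding Gm49200 rose by 2.60 and 2.16, also without a called interaction. Epsti1 and Enox1 were the only 2 genes of this stretch with a called interaction. Of the other called genes away from chromosome 6, Mid1 had 4 such neighbours among 39 tested within 5 Mb (10.3%), and 3 of these 4 overlap it. Arhgap33os had the 7 given above. Within 5 Mb of Gm27882 and of Ccdc190 there was no gene with a called effect among 266 and 179 tested by edgeR, and within 5 Mb of Gm3952, Slc5a11 and Als2cl there was 1 each.

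Loss of Ogg1 was measured a second time between DKO and Mutyh-/- mice, in 12 libraries that do not enter the first comparison. As given above, the Mutyh level was higher in these libraries than in WT, so it did not show the deletion of Mutyh. DKO mice were bred by crossing Ogg1-/- with Mutyh-/- mice, so both comparisons carry the same Ogg1 allele. Loss of Ogg1 and any difference inherited with that allele cannot be told apart in either comparison. In DKO against Mutyh-/- the interaction passed for 3 genes (0.00895% of those tested), all above 0 and all within 20 Mb of Ogg1: Tspan11, Gm15870 and Slc25a18. At an unadjusted p under 0.05 it passed for 2492 genes. Fitted to these 12 libraries alone, edgeR called none of the 3 (0 calls, 1940 at an unadjusted p under 0.05). Tspan11 was at 0.648, 0.697 and 0.893 CPM in Mutyh-/- NeuN+ and at 8.10, 10.8 and 8.91 CPM in DKO NeuN+, with an interaction of 3.21 (adjusted p = 0.000318). The level in NeuN- was 4.68, 5.42 and 10.9 CPM in Mutyh-/- and at 8.07, 7.71 and 12.2 CPM in DKO. These genotypes were apart in NeuN+ and overlapped in NeuN-, as 1 Mutyh-/- library was high. Gm15870 had an interaction of 3.18 (adjusted p = 0.000453).

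Slc25a18, which encodes a mitochondrial glutamate carrier, had a second interaction of 0.69 (adjusted p = 0.0189) and a first one of 0.55 that missed the threshold (adjusted p = 0.077). Its level was 8.06, 9.17 and 9.93 CPM in WT NeuN+ and 12.3 CPM in each Ogg1-/- NeuN+ library. It was 10.9, 10.9 and 10.6 CPM in Mutyh-/- NeuN+ and 12.2, 14.8 and 14.4 CPM in DKO NeuN+. In NeuN- it was 47.4 to 52.7 CPM in Mutyh-/- and 36.7 to 41.4 CPM in DKO. The libraries labelled as lacking Ogg1 were higher in NeuN+ in both backgrounds, and those labelled DKO were lower in NeuN-.

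**Figure D4:**
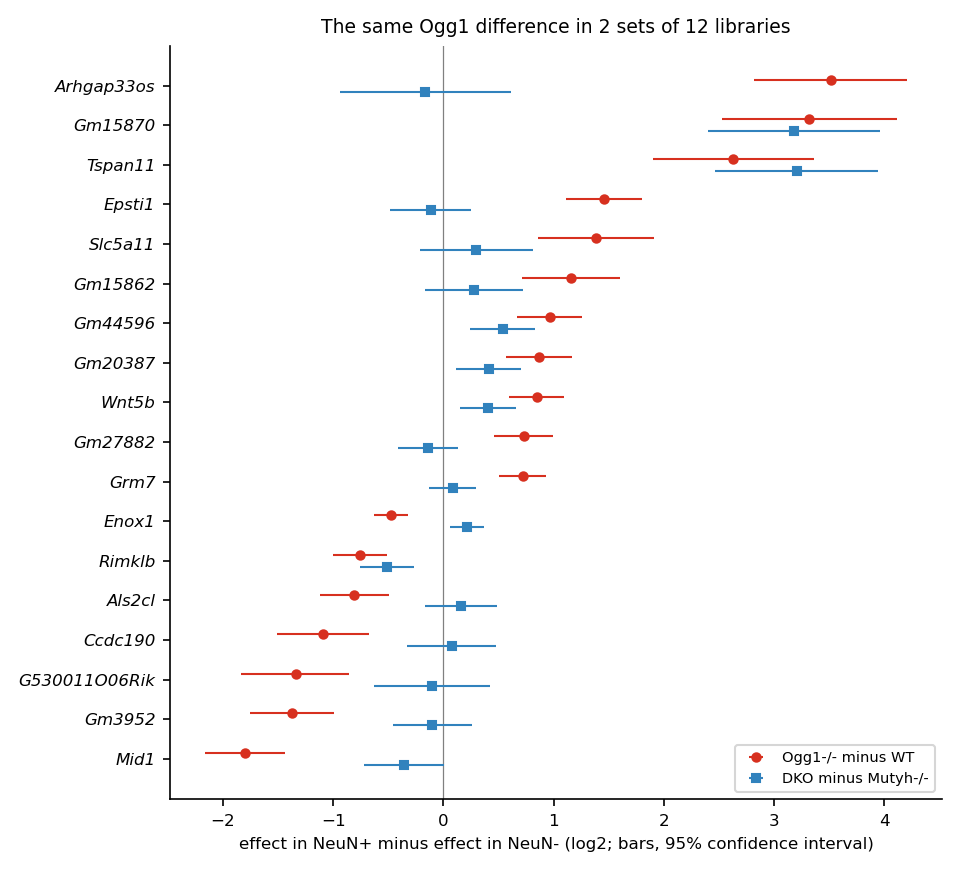
The interaction of each of the 18 genes (log2 on the horizontal axis; bars are 95% confidence intervals from the fit) in Ogg1-/- against WT (circles) and in DKO against Mutyh-/- (squares), 2 comparisons that share no library. The intervals of Tspan11, Gm15870, Rimklb, Gm44596, Wnt5b and Gm20387 lie on the same side of 0 in both. The 2 intervals of Enox1 lie on opposite sides of 0. The second estimates for Arhgap33os, Epsti1 and Gm3952 lie near 0.

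The second measurement is given apart for the 8 genes near Ogg1 and the other 10, and the difference between these sets was not tested. The 8 hold the overlapping pairs Tspan11 with Gm15870, Grm7 with Gm20387 and Gm44596 with Gm15862. The 10 hold the pair Mid1 and G530011O06Rik. The genes of a pair share a locus, and reads from their shared bases cannot be told apart. They are thus not separate cases in the counts that follow. All 8 near Ogg1 had a second interaction of the same sign as the first, and 6 of them an unadjusted p under 0.05 with it. Of the 10 genes elsewhere, 4 had the same sign and 0 an unadjusted p under 0.05 with it. Over all genes tested, 54.6% had the same sign in both and 4.68% also an unadjusted p under 0.05. Rimklb had a second interaction of -0.51 (unadjusted p = 2.75e-04), at 22.6 to 23.9 CPM in Mutyh-/- NeuN+ and 12.8 to 14.6 CPM in DKO NeuN+. Gm44596 had one of 0.54 (unadjusted p = 0.0011), Gm20387 one of 0.41 (unadjusted p = 0.00935) and Wnt5b one of 0.40 (unadjusted p = 0.00316). In these 4, the direction was as in Ogg1-/- against WT, and the size was smaller. Wnt5b fell in DKO NeuN- by 0.61 (adjusted p = 7.98e-04), from 23.5 to 29.0 CPM in Mutyh-/- to 16.3 to 17.9 CPM. Grm7 also fell there (-0.36, adjusted p = 0.0227), but its second interaction was 0.09 (95% confidence interval -0.13 to 0.30).

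The difference between the 2 interactions was tested itself, an analysis added after the data were seen, and passed for 3 genes (0.00895% of those tested; 1662 at an unadjusted p under 0.05). All 3 were among the 18, of which 15 had an unadjusted p under 0.05 for this difference. The difference contains the first interaction, by which the 18 were chosen, so neither count is independent of that choice. Mid1 missed the threshold (difference -1.44, adjusted p = 0.0671). Arhgap33os had an interaction of 3.51 in Ogg1-/- against WT and of -0.16 in DKO against Mutyh-/-, a difference of 3.68 (adjusted p = 0.0108). Its NeuN+ level was 0.123 to 0.181 CPM in Mutyh-/- and 0.123 to 0.135 CPM in DKO, so its rise in Ogg1-/- NeuN+ nuclei was not seen in the libraries labelled DKO. Epsti1 had interactions of 1.46 and -0.11 (difference 1.57, adjusted p = 0.0219), with 12.7 to 13.8 CPM in Mutyh-/- NeuN- and 12.4 to 15.3 CPM in DKO NeuN-. Enox1 had interactions of -0.48 and 0.22 (difference -0.69, adjusted p = 0.0213), with 521 to 558 CPM in Mutyh-/- NeuN- and 483 to 505 CPM in DKO NeuN-. For Epsti1 and Enox1, the DKO level in NeuN- overlapped that of WT and was apart from that of Ogg1-/-.

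Mid1 and G530011O06Rik, which lies within it, were low in every knockout. The NeuN+ level of Mid1 was 14.7 to 16.0 CPM in Mutyh-/-, 13.9 to 15.3 CPM in Ogg1-/- and 14.5 to 17.2 CPM in DKO, against 69.5 to 80.1 CPM in WT. In NeuN- nuclei it was 34.6 to 43.9 CPM in Mutyh-/- and 40.8 to 66.4 CPM in DKO. The interactions against WT were -1.26 in Mutyh-/-, -1.80 in Ogg1-/- and -1.62 in DKO, 3 values that share the WT libraries. DKO against Mutyh-/-, where both groups are labelled as lacking Mutyh and only 1 has Ogg1, gave an interaction of -0.36 (95% confidence interval -0.72 to 0.0098). G530011O06Rik had the same order, with -1.07, -1.34 and -1.18 against WT and -0.10 between DKO and Mutyh-/-. Of the 18 genes, 13 had 1 sign against WT in all 3 knockouts. These comparisons share the WT libraries by which the 18 were also chosen, so the count is not independent of that choice. The share over all genes tested is not given here. The other 5 were Epsti1, Tspan11, Gm3952, Enox1 and Rimklb.

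**Figure D5:**
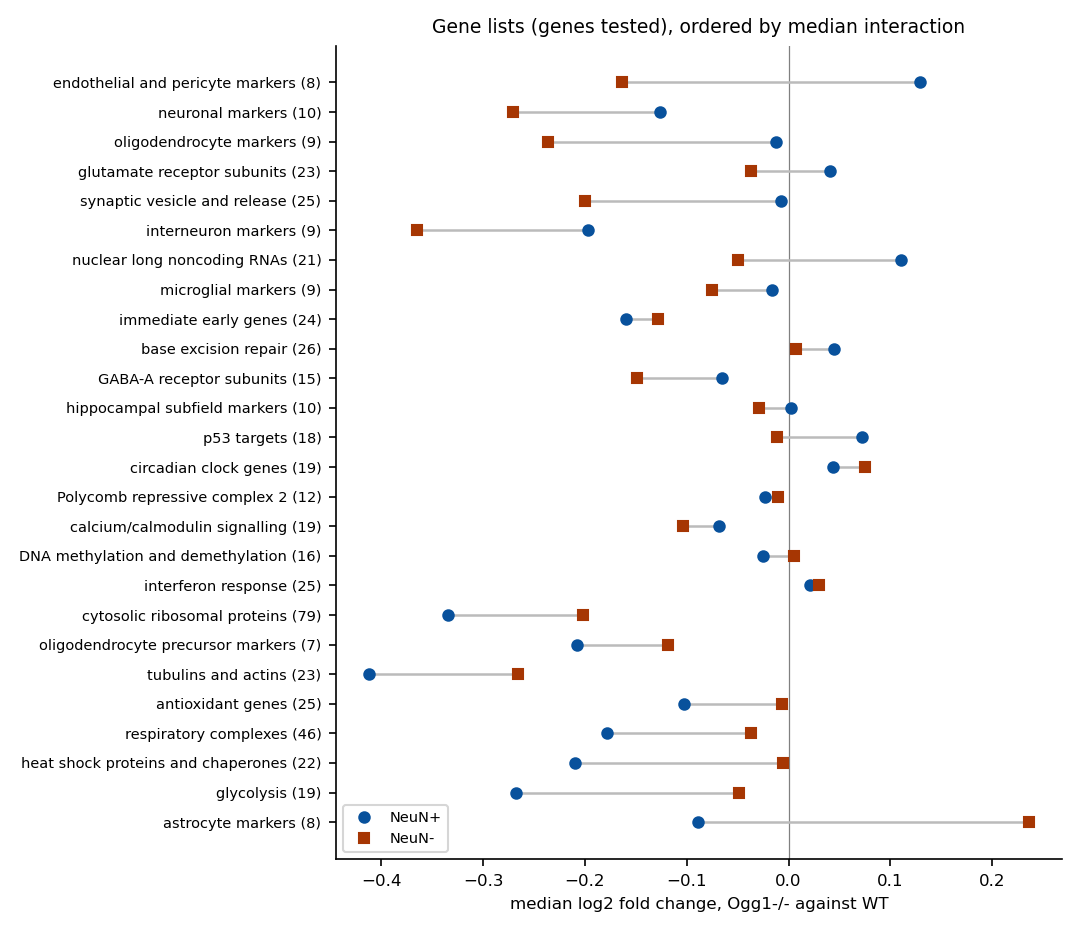
Median log2 fold change of Ogg1-/- against WT over the tested genes of 26 gene lists, in NeuN+ (circles) and NeuN- (squares), with the number of genes in brackets, in order of the median interaction. Glycolysis had a median of -0.27 in NeuN+ and of -0.05 in NeuN-, and astrocyte markers one of -0.09 in NeuN+ and of 0.24 in NeuN-; the choroid plexus markers and 2 single-locus lists are left out.

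Among 29 gene lists, the median interaction over all genes tested being 0.0079, a called interaction was found in 3: Grm7 among the glutamate receptor subunits, Epsti1 among the interferon-response genes, and Mid1 with G530011O06Rik at the Mid1 locus. The other lists are described by counts and medians. Glycolysis, which turns glucose into pyruvate and lactate, had 17 of 19 tested genes below 0 (48.4% of all genes were), a median interaction of -0.285, and medians of -0.27 in NeuN+ and -0.05 in NeuN-. At an unadjusted p under 0.05, 10 of the 19 were lower, against 7.09% of all genes in either direction, and by edgeR's adjusted p none passed. Eno1, an enolase, was at 53.9, 63.9 and 59.7 CPM in WT NeuN+ and at 48.9, 46.1 and 41.8 CPM in Ogg1-/- NeuN+. In NeuN- it was at 52.5, 46.5 and 53.2 CPM in WT and at 53.9, 55.8 and 49.5 CPM in Ogg1-/-. The genotypes were apart in NeuN+ only, and the interaction was -0.44 (unadjusted p = 0.00393, adjusted p = 0.489). Ldhb, which makes pyruvate from lactate, had an interaction of -0.36 and Tpi1 of -0.43 (adjusted p = 0.489 and 0.529). Taken in NeuN+ alone, 6 glycolysis genes passed an adjusted p under 0.05, all lower (1.24% of all genes passed in either direction and 1.01% downwards), and none did in NeuN- by edgeR, where 0.886% of all genes passed.

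Other lists of widely used genes lay on the same side. Of 46 nuclear-encoded subunits of the respiratory complexes, which make up the mitochondrial electron transport chain and ATP synthase, 44 were below 0, with a median interaction of -0.16. Cox8a of complex IV had the smallest p (-0.41, unadjusted p = 0.00935, adjusted p = 0.55). Heat shock proteins and chaperones had 18 of 22 below 0 and a median of -0.24, with Hsp90aa1 at -0.57 (adjusted p = 0.652). In tubulins and actins, 17 of 23 were below 0 (median -0.12), and in cytosolic ribosomal proteins 67 of 79 (median -0.11). Antioxidant genes had 19 of 25 below 0 (median -0.14). In all of these lists the median effect was negative in both cell types and the more negative in NeuN+, the widest in size being -0.41 and -0.27 for tubulins and actins and -0.33 and -0.20 for ribosomal proteins, in NeuN+ and NeuN- in that order. In DKO against Mutyh-/- the median interaction over all genes tested was 0.01. Heat shock proteins and chaperones had 0.15 there, with 3 of 22 below 0. Tubulins and actins had 0.005, antioxidant genes 0.02, respiratory complexes -0.03, ribosomal proteins -0.03 and glycolysis -0.08.

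The lists of synaptic and neuronal genes differed among themselves. Of 23 glutamate receptor subunits, 4 were below 0, and the median interaction was 0.11, with medians of 0.04 in NeuN+ and -0.04 in NeuN-. Apart from Grm7, the smallest p belonged to Grin1, the obligate subunit of NMDA receptors. It was at 351, 365 and 348 CPM in WT NeuN+ and at 343, 352 and 362 CPM in Ogg1-/- NeuN+. In NeuN- it was at 29.6, 33.6 and 32.5 CPM in WT and at 20.7, 24.3 and 24.3 CPM in Ogg1-/-. The genotypes overlapped in NeuN+ and were apart in NeuN-, where the fold change was -0.47 (adjusted p = 0.00148), and the interaction of 0.46 did not pass (adjusted p = 0.178). Synaptic vesicle genes had 7 of 25 below 0 (median 0.11), GABA-A receptor subunits 7 of 15 (median 0.01) and calcium/calmodulin signalling genes 10 of 19 (median -0.02). Interneuron markers had 2 of 9 below 0 (median 0.08), and neuronal markers 3 of 10 (median 0.14), with Rbfox3 at 0.44 (adjusted p = 0.575). The neuronal marker sum in NeuN- was 786 to 879 CPM in WT and 726 to 802 CPM in Ogg1-/-, and its part in the values of Grin1 and the other synaptic genes was not tested.

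Several markers of glial cell types changed within NeuN-. All 8 tested astrocyte markers were below 0, with a median interaction of -0.43 and medians of -0.09 in NeuN+ and 0.24 in NeuN-. Gfap, the intermediate filament protein of astrocytes, was at 34.8, 34.3 and 41.9 CPM in WT NeuN- and at 50.6, 59.5 and 49.7 CPM in Ogg1-/- NeuN-. In NeuN+ it was at 4.14, 3.84 and 3.73 CPM in WT and at 4.40, 3.71 and 3.09 CPM in Ogg1-/-. The genotypes were apart in NeuN- (fold change 0.53, adjusted p = 0.031) and overlapped in NeuN+, and the interaction of -0.60 did not pass (unadjusted p = 0.00423, adjusted p = 0.491). Aldh1l1, a folate enzyme used as an astrocyte marker, rose in NeuN- by 0.53 (adjusted p = 0.0411), and its interaction of -0.52 did not pass (adjusted p = 0.588). The summed astrocyte markers ranged from 2870 to 3410 CPM in WT NeuN- and from 3330 to 4220 CPM in Ogg1-/- NeuN-, with overlap. Oligodendrocyte markers went the other way, with 2 of 9 below 0 and a median interaction of 0.13. Cnp, an enzyme of myelin, was at 378, 351 and 323 CPM in WT NeuN- and at 267, 229 and 250 CPM in Ogg1-/- NeuN- (fold change -0.50, adjusted p = 0.0214), and its interaction of 0.49 did not pass (adjusted p = 0.491). Microglial markers summed to 779 to 918 CPM in WT NeuN- and to 734 to 828 CPM in Ogg1-/- NeuN-. Choroid plexus markers had all 7 tested genes below 0 but no unadjusted p under 0.05 by edgeR, and in Ogg1-/- NeuN- their sum ran from 17.3 CPM in 1 library to 111 CPM in another.

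In the repair pathway of OGG1 itself no interaction was called by edgeR. Of 26 base excision repair genes tested, 10 were below 0, and the median interaction was 0.02. Mbd4, a glycosylase for mismatched thymine, was the only one with an unadjusted p under 0.05 (-0.22, unadjusted p = 0.0344, adjusted p = 0.661). Mutyh had an interaction of -0.19 (SE 0.21, adjusted p = 0.918). p53 targets, circadian clock genes, genes of DNA methylation and subunits of the Polycomb repressive complex 2 had median interactions between -0.02 and 0.00, without a called gene in edgeR's test. Immediate early genes, which answer neuronal activity, had a median of 0.02 and no unadjusted p under 0.05.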

How the data were processed

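Hippocampal nuclei of male mice were sorted by NeuN, and their RNA was sequenced in 24 libraries of 8 groups with 3 replicates each. The deposited values were whole-number counts per gene in 1 table for each cell type, which the authors made by aligning reads with HISAT2 (version 2.1.0, with FastQC 0.11.9 and SAMtools 1.10) to GRCm38/mm10 and counting with featureCounts on Ensembl annotation. Per the submitters' processing notes, R 4.3.2 and edgeR 3.42.4 followed. Whether reads were counted by strand is not given in the sources used here. A count per gene mixes spliced and unspliced transcripts.

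The tables were joined by symbol. Genes with low counts were removed by filterByExpr, leaving 33523 of 55254, and library sizes were scaled by TMM over 24 libraries. All groups were fitted together with edgeR's quasi-likelihood test (version 4.0.16, R 4.3.3). The spread was estimated for each gene, with all groups sharing that estimate. As a summary over genes, the common biological coefficient of variation was 0.105. The p-values were adjusted by Benjamini-Hochberg over all genes tested. An interaction was called at an adjusted p under 0.05, and an effect in 1 cell type also needed an absolute log2 fold change over 0.5. Intervals are 95% intervals from that fit. No 2 libraries of a group agreed within sampling noise (chi-square per gene at least 5.09). The code was tested on simulated data. Alternatives used other scaling, filters and samples, DESeq2 1.42.0, limma 3.58.1 and each library left out. Gene positions came from GENCODE vM21 (96.7% of tested genes) and promoters from RefSeq.

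The contrast, the gene lists, the 20 Mb window and the rules were chosen with earlier results of these data known. The genes named were Ogg1 and Mutyh, all with a called interaction in either background, up to 4 of each list with the smallest p, leading genes shared by or called in 1 cell type, and the markers. Camk1, Kirrel2, Nphs1, Ccdc7a, Tex52, Zfp248, Esd, Lacc1 and Gm49200 were chosen after their values were seen. Mitochondrially encoded genes were not analysed here.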

Additional observations from a re-analysis of the deposited data

Results flagged for a closer look

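All the results below were picked out because the effect of Ogg1 loss differed between groups by a test of the difference itself (edgeR's quasi-likelihood test, adjusted p under 0.05). Values are log2 differences, NeuN+ minus NeuN-.

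The effect in Ogg1-/- against WT was the more positive in NeuN+ for 11 genes: Arhgap33os (3.51), Gm15870 (3.32), Tspan11 (2.63), Epsti1 (1.46), Slc5a11 (1.38), Gm15862 (1.16), Gm44596 (0.97), Gm20387 (0.87), Wnt5b (0.85), Gm27882 (0.73) and Grm7 (0.72). It was the more negative in NeuN+ for 7 genes: Mid1 (-1.80), Gm3952 (-1.37), G530011O06Rik (-1.34), Ccdc190 (-1.09), Als2cl (-0.81), Rimklb (-0.75) and Enox1 (-0.48).

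In DKO against Mutyh-/- mice, whose libraries overlap with none of the first comparison, the difference passed for Tspan11 (3.21), Gm15870 (3.18) and Slc25a18 (0.69). The interactions of the 2 backgrounds differed from each other for Arhgap33os (3.68), Epsti1 (1.57) and Enox1 (-0.69), the first minus the second.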

How the results depend on the processing

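The median standard error of an interaction was 0.231 on the log2 scale, so a small difference between cell types was often not detectable with 3 libraries a group. No named gene with a called interaction changed sign under any alternative run. Of the 18, 11 stayed called in every alternative that gave them an adjusted p (Arhgap33os, Mid1, Epsti1, Gm15870, Tspan11, Gm3952, Wnt5b, Grm7, Gm44596, Enox1 and Rimklb). The other 7 lost the call in at least 1. Among alternatives that kept the genes near Ogg1, G530011O06Rik lost the call only on leaving out a library. Without the genes within 20 Mb of Ogg1 it lost the call too. Gm20387, Gm27882, Slc5a11, Ccdc190, Gm15862 and Als2cl also lost it with limma voom. Gm20387, Gm27882, Slc5a11, Ccdc190 and Als2cl also lost it in a fit to the libraries of the contrast alone. With the replicate number as a block, Gm20387, Slc5a11, Ccdc190 and Als2cl lost it too. Where a call moved, the cause was not tested unless stated.

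DESeq2 called 65 interactions in place of 18 (16 shared), 221 NeuN- effects in place of 145, and 49 interactions in DKO against Mutyh-/- in place of 3, with 0 shared because its filter on mean counts left all 3 genes without an adjusted p. Without that filter, added after seeing the data, it called 52 interactions (17 shared) and 10 in DKO against Mutyh-/- (3 shared). edgeR's likelihood ratio test gave 44 interactions, 295 NeuN+ effects, 264 NeuN- effects and 14 interactions in DKO against Mutyh-/-. A fit to the 12 libraries of each contrast alone gave 27 interactions in Ogg1-/- against WT, 13 of them shared with the 18. It gave 249 NeuN- effects, and for DKO against Mutyh-/- 0 calls by edgeR (1940 at an unadjusted p under 0.05). Without the size limit, 415 NeuN+ and 297 NeuN- effects passed. Without the genes within 20 Mb of Ogg1, an alternative added after seeing the data, p-values were adjusted over the other 33021. Of the 10 interactions called outside this window in Ogg1-/- against WT, 5 remained called. In DKO against Mutyh-/-, 0 were called (edgeR, 2437 at an unadjusted p under 0.05).

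With 1 library left out, between 12 and 17 interactions, 77 and 225 NeuN+ effects, 98 and 185 NeuN- effects, and 2 and 4 interactions in DKO against Mutyh-/- were called. The NeuN+ count dropped most without Ogg1-/- NeuN+ replicate 3 (77) or 2 (98) and without WT NeuN+ replicate 2 (104) or 3 (106).

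The replicate numbers did not meet the rule for pairs. Deviations of same-numbered NeuN+ and NeuN- libraries correlated at 0.0107 to 0.292, with 2 of 6 over 0.1, and those of other numbers at -0.258 to 0.136. As a hint from the data, 5 of 6 NeuN+ libraries were closest to their own number. In Mutyh-/- and DKO, same-numbered libraries correlated at 0.0448 to 0.197, with 4 of 6 over 0.1 (all 3 of DKO), and all 6 NeuN+ libraries were closest to their own number. With the replicate number as a block, 26 interactions were called (14 shared with the 18), and 4 in DKO against Mutyh-/-. Effects within 1 cell type could not be fitted with the block.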
